A study of Mus musculus with 2 samples.

Results

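The genes described here are 10 secreted proteins that the fetal liver is known for: Afp, Alb, Apoa1, Apoa2, Apob, Apoe, Apom, Ttr, Trf and Rbp4. They were chosen by name from the 52550 genes of the count tables, without use of their levels, and all 10 are present there. For each gene the level in every cell class and in each library is given, then its place among the other members in hepatoblast-like cells, its presence in other classes and its level in droplets that held little more than free RNA.

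Hepatoblasts bud from the ventral foregut endoderm beside the developing heart and give rise to hepatocytes and bile duct cells. They secrete the plasma proteins of the embryo. Alpha-fetoprotein (Afp) is the main fetal plasma protein, and albumin (Alb) takes over that role as the liver matures. Transthyretin (Ttr) carries thyroid hormone and binds retinol-binding protein (Rbp4), which carries retinol, and transferrin (Trf) carries iron. Apolipoproteins are the protein part of lipoprotein particles: Apob is the structural protein of very low and low density lipoprotein, Apoa1 and Apoa2 are the main proteins of high density lipoprotein, Apom binds sphingosine-1-phosphate on that particle, and Apoe is a ligand for lipoprotein uptake receptors. Outside the liver, Apoe is known from macrophages and astrocytes, and the yolk sac visceral endoderm makes many of the same proteins.

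The cells came from wild-type (WT) CD1 mouse embryos at embryonic day 10.0. The posterior second heart field (pSHF), which lies next to the foregut, and the heart tube (HT) were dissected, and tissue of about 80 embryos was pooled for each of 2 Drop-seq libraries, replicates 1 and 2, made on different days. Drop-seq captures the 3′ ends of polyadenylated RNA in droplets and counts molecules by unique molecular identifiers (UMIs), so that levels of different genes can be set side by side without correction for transcript length. There is 1 condition, so the comparisons are between cell classes of the same 2 libraries. Each p-value is set against the spread between libraries within classes, after their shared difference is taken off. That spread is estimated over all classes together and does not cover variation between further pools of embryos.

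The deposited matrix of replicate 1 lists 5000 barcodes with a total of 11958912 UMIs, and that of replicate 2 lists 7497 with a total of 14131384. After filters on genes, mitochondrial UMIs and doublet scores, 3864 and 4743 cells were kept, with medians of 1375.5 and 1503.0 UMIs. The libraries shared 82 barcodes, of which 0 were among the kept cells. Cells were clustered without the 10 genes or the other liver and plasma protein lists, and clusters were named from markers. The hepatoblast-like cluster held 103 cells in replicate 1 (2.67%) and 100 in replicate 2 (2.11%), with medians of 1155 and 1869.5 UMIs. In it 10 of 15 hepatoblast markers were raised at least 2-fold over all other cells, among them the transcription factors Hnf4a, Prox1, Onecut1, Foxa3 and Cebpa, while Cps1, a urea cycle enzyme of mature hepatocytes, was at 0. The summed level of the 15 markers was 6444 and 6662 CPM, the usual scaling of the UMIs of a gene to the total UMIs of the class, against 1605 and 1679 CPM in foregut endoderm-like cells. None of the 10 foregut endoderm markers was at 0 in the hepatoblast-like cluster, and their sum was 1741 and 2241 CPM there and 3568 and 3054 CPM in foregut endoderm-like cells. Yolk sac visceral endoderm markers summed to 28.4 and 38.8 CPM, with Amn, Slc13a4, Rhox5 and Muc13 at 0, and 10 of 11 macrophage markers were at 0. The dissection was of heart and pSHF tissue, and the labels name no liver.

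The promoters of 4 members are shown because the following results turn on them: Afp, the most abundant member, its chromosomal neighbour Alb, Apoa2, whose difference from other classes was the largest fitted, and Apoe, the member with the widest presence in other classes. Each is the 120 bases before a RefSeq transcript start (GRCm38.p6), printed 5′ to 3′ on the strand of the gene, and 8 of the 10 members had an entry. Capitals mark matches to 4 motifs searched on both strands: the palindromic HNF1 consensus with up to 3 mismatches, the HNF4 site CAAAGTCCA with up to 1 mismatch, the exact FOXA letters TGTTTAC and the exact TATA box letters TATAAA.
Alb, chr5:90460750-90460869, plus strand: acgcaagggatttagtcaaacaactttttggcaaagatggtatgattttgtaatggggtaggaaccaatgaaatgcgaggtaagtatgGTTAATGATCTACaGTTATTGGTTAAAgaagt
Afp, chr5:90490594-90490713, plus strand: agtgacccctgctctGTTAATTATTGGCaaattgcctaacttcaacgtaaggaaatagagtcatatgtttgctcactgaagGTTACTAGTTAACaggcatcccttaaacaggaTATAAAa
Apoa2, chr1:171224934-171225053, plus strand: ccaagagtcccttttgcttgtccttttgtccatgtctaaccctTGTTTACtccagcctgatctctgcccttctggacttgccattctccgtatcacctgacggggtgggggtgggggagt
Apoe, chr7:19699189-19699308, minus strand: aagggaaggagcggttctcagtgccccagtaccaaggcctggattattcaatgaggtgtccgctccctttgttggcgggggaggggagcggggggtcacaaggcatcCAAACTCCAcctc
Alb and Afp each had 2 HNF1 matches, Apoa2 had a FOXA match, and Apoe had an HNF4 match. Over the 250 bases before each start, the stretch that was searched, the 8 members have 12 windows, since Apoe, Apoa2 and Rbp4 have several starts. An HNF1 match was in 4 of the 12 (Alb, Afp, Apom and Rbp4) and in 2491 of 32851 windows of all genes (7.58%). An HNF4 match was in 4 of the 12 (Afp, Apoa2 and 2 of Apoe) and in 7.05% of all windows, FOXA in 2 of the 12 (Apoa2 and Rbp4) and in 3.17%, and the TATA box in 5 of the 12 and in 12.4%. These matches describe letters in the windows, not binding.

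In the GENCODE M21 annotation (GRCm38), Alb (5:90460897-90476602) and Afp (5:90490737-90508907) lie in the same direction on chromosome 5 with 14134 bases between them, and Afm, another albumin family gene, follows. Apoa1 (9:46228580-46230466) lies beside Apoc3, Apoa4 and Apoa5, and Apoe (7:19696109-19699188, minus strand) beside Apoc1, Apoc4 and Apoc2. Apoa2 (1:171225054-171226379), Apob (12:7977648-8016835), Apom (17:35128997-35132050, minus strand) and Rbp4 (19:38116629-38125281, minus strand) stand apart from the other members. Trf (9:103204001-103230444, minus strand) overlaps the predicted gene Gm20425 on the same strand, so its reads and those of Gm20425 may have been split or lost in counting.

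Afp was the most abundant member in hepatoblast-like cells. Replicate 1 held 2014 Afp UMIs in this class (6365 CPM) and replicate 2 held 1148 (3707 CPM), a mean of 5036 CPM ± 1880 (SD, n = 2 libraries). Afp ranked 2 among all genes by level in replicate 1 and 12 in replicate 2. Alb was far lower, at 100 UMIs (316 CPM) in replicate 1 and 55 UMIs (178 CPM) in replicate 2, a mean of 247 CPM ± 97.9. Of the UMIs of this gene pair, Alb made up 4.73% in replicate 1 (exact 95% binomial interval 3.87 to 5.72) and 4.57% in replicate 2 (3.46 to 5.91). The levels of both genes were lower in replicate 2, while their ratio differed by less than the counting error. All intervals cover counting error only.

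The carriers came next. Ttr had 637 UMIs (2013 CPM) and 560 UMIs (1808 CPM), a mean of 1911 CPM ± 145. Its partner Rbp4 had 347 UMIs (1097 CPM) and 277 UMIs (895 CPM), a mean of 996 CPM ± 143. For each Ttr UMI there were 0.545 Rbp4 UMIs in replicate 1 and 0.495 in replicate 2, and the binomial intervals of the Rbp4 share overlapped. The iron carrier Trf was lower, with 168 UMIs (531 CPM) and 121 UMIs (391 CPM), a mean of 461 CPM ± 99.2.

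The apolipoproteins spanned more than 100-fold. Apoe had 557 UMIs (1760 CPM) in replicate 1 and 607 UMIs (1960 CPM) in replicate 2, a mean of 1860 CPM ± 141. Apoa2 had 545 UMIs (1723 CPM) and 434 UMIs (1402 CPM), a mean of 1562 CPM ± 227. The other high density lipoprotein protein, Apoa1, was at 84 UMIs (265 CPM) and 76 UMIs (245 CPM), or 0.154 and 0.175 Apoa1 UMIs for each Apoa2 UMI. Apom followed with 43 UMIs (136 CPM) and 54 UMIs (174 CPM). Apob, the structural protein of the particles that the liver exports, was at 5 UMIs in each library (15.8 and 16.1 CPM), each with a 95% Poisson interval from about 5 to 38 CPM that makes it the least precisely measured member.

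By mean level the order was Afp, Ttr, Apoe, Apoa2, Rbp4, Trf, Apoa1, Alb, Apom and Apob. Ttr and Apoe overlapped between the libraries, as did Apoa1 and Alb, and in these pairs the order differed between replicates. Every other neighbouring pair was ordered the same way without overlap of the library values. For 2 of these pairs the gap in a library was smaller than the counting error. They were Apoe and Apoa2 in replicate 1 (557 and 545 UMIs) and Alb and Apom in replicate 2 (55 and 54 UMIs), so their order is not settled. The 10 genes together made up 1.42% of the UMIs of hepatoblast-like cells in replicate 1 and 1.08% in replicate 2. Afp accounted for most of that difference in the sum: its level was lower in replicate 2, while Apoe and Apom were slightly higher in replicate 2. With classes set per cell from markers every member was lower in hepatoblast-like cells, Afp at a mean of 2380 CPM and Alb at 148 CPM.

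**Figure D1:**
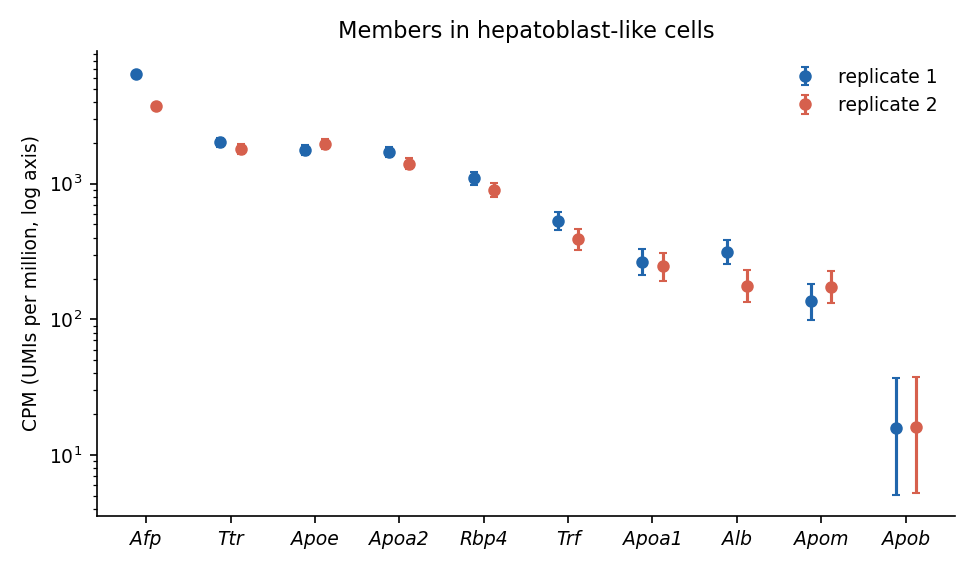
Level of each member in hepatoblast-like cells (CPM, log axis) in replicate 1 and replicate 2, with exact 95% Poisson intervals. Afp stands above the rest in both libraries, Ttr, Apoe and Apoa2 lie close together between 1402 and 2013 CPM, and Apob lies at about 16 CPM with wide intervals.

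The members were unevenly spread over the cells of the class. An Afp UMI was seen in 77.7% of hepatoblast-like cells in replicate 1 and 60% in replicate 2, and an Alb UMI in 33.0% and 27.0%. Ttr was seen in 73.8% and 61.0%, Apoe in 63.1% and 62.0%, Apoa2 in 59.2% and 54.0%, and Rbp4 in 53.4% and 50%. Trf was seen in 39.8% and 34.0%, Apoa1 in 28.2% and 28.0%, Apom in 13.6% and 19.0%, and Apob in 4.85% and 5%. In erythroid-like cells, which should lack these RNAs and were deeper (medians of 3482.5 and 6040 UMIs), the shares were between 0 and 3.42%, the highest being that of Apoe. With every cell thinned to 1000 UMIs, which left 57 and 73 hepatoblast-like cells, Afp was seen in 87.7% and 65.8% and Alb in 19.3% and 13.7%.

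Within a cell, Alb was nearly always found together with Afp. Both genes were seen in 33 cells of replicate 1 and 26 of replicate 2, Afp without Alb in 47 and 34, Alb without Afp in 1 and 1, and neither in 22 and 39. The median cell showed 5 of the 10 members in replicate 1 and 4 in replicate 2, and 1 cell in each library showed all 10. At least 5 members were seen in 56 and 48 cells. The single cell with the most Afp held 385 of the 2014 Afp UMIs of replicate 1, and 102 of the 1148 of replicate 2. The median share of a cell's UMIs taken by the 10 genes was 1.03% and 0.697%, and the highest was 6.34% and 4.33%. Across thinned cells, log counts of Afp and Apoa2 had a Pearson r of 0.58 in replicate 1 and 0.74 in replicate 2 (57 and 73 cells that share a library), the strongest pair by the lower of its values.

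No member was seen in 10 hepatoblast-like cells of replicate 1 and 24 of replicate 2. These cells were shallower, with medians of 780 and 1438.5 UMIs against 1249 and 2176.5 in the others. Their hepatoblast marker sums were 2217 and 4165 CPM, against 6581 and 7139 CPM in the rest of the class. Their foregut endoderm marker sums were 907 and 2877 CPM, against 1769 and 2120 CPM in the rest, so lower in replicate 1 and higher in replicate 2. Without them Afp was at 6572 and 4416 CPM and the order of the members was the same in its first and last places. The part of depth and of cluster borders in these cells was not tested.

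**Figure D2:**
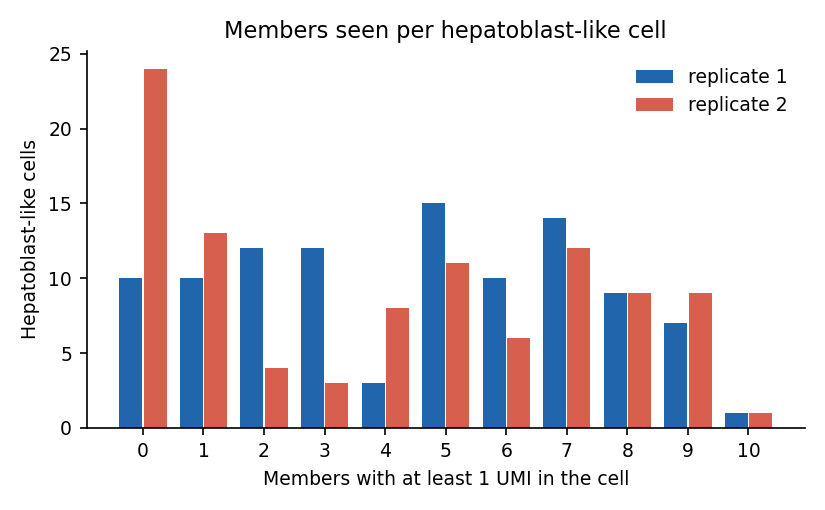
Number of hepatoblast-like cells (y axis) by how many of the 10 members had at least 1 UMI in the cell (x axis), for replicate 1 (103 cells) and replicate 2 (100 cells). Cells with 0 members number 10 and 24, and 1 cell in each library shows all 10.

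Hepatoblast-like cells were then compared with the other 14 classes that had at least 20 cells in each library. UMIs were summed per class and library and fitted with edgeR's quasi-likelihood test over 9812 genes with Benjamini-Hochberg adjustment, and a log2 fold change here is the fitted level in the class minus the mean of the fitted log2 levels of the others. Of the 10 members, 9 had enough counts to be tested and all 9 were higher in hepatoblast-like cells, where 835 of the 9812 genes (8.51%) were higher and 3.45% lower. Several of these 9 could pass the filter on low counts only through hepatoblast-like cells, so this count is a description. For all 10 members, Apob included, both libraries of hepatoblast-like cells lay above every library of the other 14 classes, as was the case for 227 of the tested genes (2.31%). The median log2 fold change of the 9 was 8.22, against 0.01 over all tested genes.

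The largest fitted differences were those of Apoa2, with a log2 fold change of 10.03 ± 0.16 (SE), and Afp, with 9.93 ± 0.10 (adjusted p = 1.65e-47 and 4.28e-59, edgeR). Alb followed at 9.27 ± 0.41 and Ttr at 8.52 ± 0.14. Trf was at 8.22 ± 0.25, Apom at 7.90 ± 0.46, Apoa1 at 7.82 ± 0.35 and Rbp4 at 7.64 ± 0.17. Apoe differed least, at 4.96 ± 0.11 (adjusted p = 8.57e-43, edgeR). These fitted values depend on the prior count where other classes are at or near 0, as for Alb and Apom, and the Alb call was lost with DESeq2 (8.71, adjusted p = 0.421). Each SE given with a log2 fold change is that value over the square root of the F statistic of its quasi-likelihood test. It is not a standard error taken from the fit, and it depends on the prior count as well.

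Direct ratios of summed UMIs show the same contrast without a prior count. Afp was 473-fold higher in hepatoblast-like cells than in the pooled other classes in replicate 1 and 678-fold in replicate 2. Alb, with 4 and 2 UMIs in all other classes together, was 634-fold higher (95% counting interval 240 to 2373) and 860-fold higher (227 to 7281). Apob, with 6 and 1 UMIs elsewhere, was 21.1-fold (5.10 to 83.1) and 156-fold higher (17.5 to 7398). Apoe was 19.8-fold and 16.6-fold higher. Over every kept cell, unnamed clusters included, hepatoblast-like cells held 93.8% of Alb UMIs (mean of the libraries), 93.0% of Afp and 93.0% of Apoa2. The shares were 77.9% for Ttr, 73.9% for Apom, 73.3% for Trf, 64.5% for Apoa1 and 64.4% for Apob. For Rbp4 the share was 51.0% in replicate 1 and 45.2% in replicate 2, and for Apoe it was 35.0% and 28.4%. The Apob mean rests on 5 of 11 UMIs in replicate 1 (45.5%) and 5 of 6 in replicate 2 (83.3%).

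**Figure D3:**
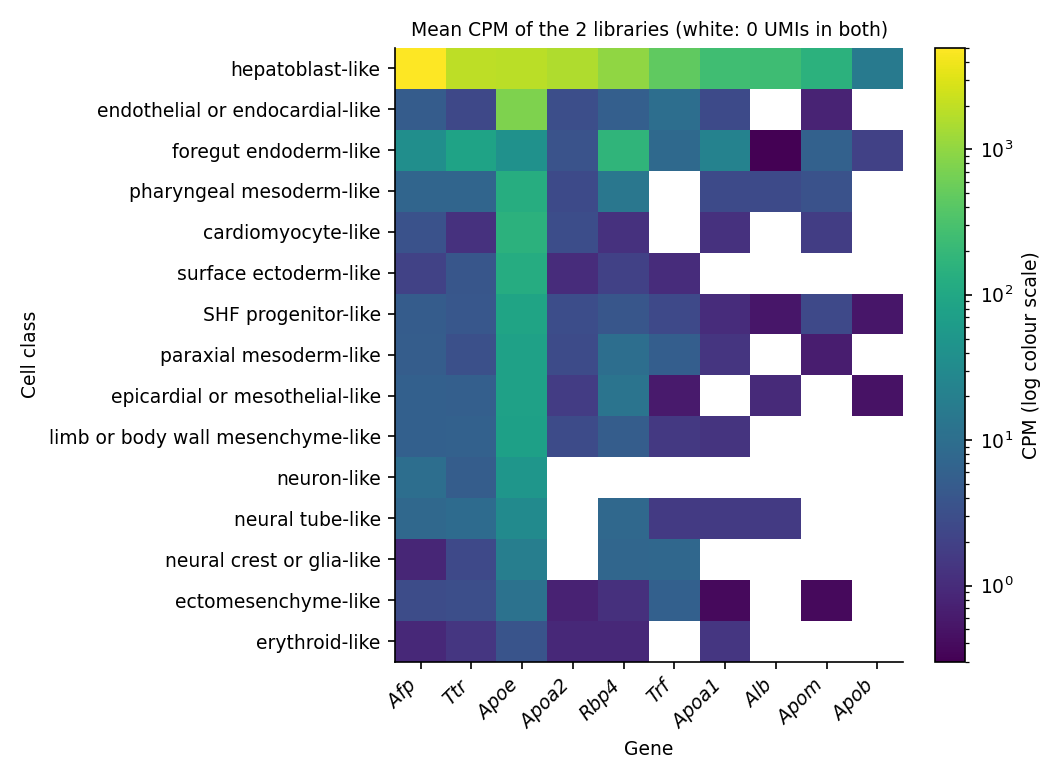
Mean CPM of the 2 libraries for each member (columns) in the 15 tested classes (rows) on a log colour scale, with white where neither library had a UMI. The hepatoblast-like row is the highest for every member, Apoe is present in every class, and the foregut endoderm-like row shows Rbp4, Ttr, Afp and Apoa1.

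Free RNA in droplets gives UMIs in cells that do not make them, so its level was measured in barcodes with 10 to 200 UMIs. There were 117 such barcodes with 8713 UMIs in replicate 1 and 333 with 55494 UMIs in replicate 2. The 10 members together had 5 and 7 UMIs in them, or 574 CPM (95% Poisson interval 186 to 1339) and 126 CPM (50.7 to 260). Afp had 2 and 1 UMIs, Apoa2 had 1 and 4, Rbp4 had 1 and 2 and Apoe had 1 and 0. The other 6 members had 0, which by the floor of 3 UMIs allows up to 344 CPM in replicate 1 and 54.1 CPM in replicate 2. The exact upper 95% Poisson limit of a count of 0, which is the one applied below, was 423 and 66.5 CPM. Haemoglobin RNA of erythroid cells was at 36038 and 22813 CPM in the same barcodes, far above any member. The level of a member that free RNA could bring to a class was taken as its level in these barcodes scaled by the haemoglobin level of the class, and 20 pairs of a member and a class lay above the upper 95% limit of that level in both libraries. Hepatoblast-like cells gave 9 of them, 1 for each member but Apob. Apoe exceeded the limit in 7 further classes, and Afp, Apoa1, Rbp4 and Ttr in foregut endoderm-like cells. Haemoglobin itself was at 1293 and 1595 CPM in hepatoblast-like cells.

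Foregut endoderm-like cells, the tissue from which the liver bud arises, carried a low level of several members. This class held 339 and 544 cells and was compared with the 13 other classes, hepatoblast-like cells left out, with adjustment over all genes and classes. Of the 9 tested members 6 were higher there, where 14.2% of tested genes were higher, and Apoe was lower, as were 4.73% of genes. Rbp4 had 266 UMIs (210 CPM) in replicate 1 and 230 UMIs (133 CPM) in replicate 2, with a log2 fold change of 5.44 ± 0.20 (adjusted p = 4.83e-30, edgeR). Ttr had 140 UMIs (111 CPM) and 100 UMIs (58.0 CPM), a log2 fold change of 4.24 ± 0.24. Rbp4 in this class remained 5.22-fold and 6.71-fold below its level in hepatoblast-like cells, and Ttr 18.2-fold and 31.2-fold below. Apoa1 had 44 and 16 UMIs (34.7 and 9.28 CPM; log2 fold change 4.44 ± 0.48) and Afp 76 and 24 UMIs (60 and 13.9 CPM; 2.92 ± 0.27). Apom, with 11 and 6 UMIs, and Trf, with 12 and 12, were also higher (3.44 ± 0.72 and 2.59 ± 0.54). Alb had 0 and 1 UMIs in this class, Apoa2 had 7 and 3, and Apob had 5 and 0. These low levels depend on how cells were assigned. With classes set per cell from markers, 313 and 469 cells were foregut endoderm-like, and they held Afp at 793 and 319 CPM, Apoa2 at 180 and 102 CPM, Apoe at 193 and 195 CPM and Alb at 41 and 21 UMIs. The log2 fold change of Afp was then 7.29 and that of Rbp4 5.90, against 1.31 and 2.21 with the liver genes kept in the clustering. With cells of at least 800 genes the calls for Afp, Apoa1 and Apom were lost (adjusted p = 0.111, 0.133 and 0.262, edgeR), and Apom was also lost with the liver genes kept in the clustering (adjusted p = 0.304).

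The Rbp4 and Ttr UMIs were concentrated in part of the class. It was made of 2 clusters, and in the cluster marked by Shh and Foxa2 (237 and 222 cells) Rbp4 was at 278 and 304 CPM and Ttr at 145 and 137 CPM. In the other cluster, marked by Fgf8 and Foxi2 (102 and 322 cells), Rbp4 was at 12.4 and 16.6 CPM and Ttr at 9.27 and 3.91 CPM, so the libraries of the 2 clusters did not overlap for either gene. Apoa1 and Apom were also higher in the Shh and Foxa2 cluster without overlap. Afp overlapped, at 57.3 and 31.4 CPM against 68.0 and 1.95 CPM, as did Trf and Apoa2, whose means were higher in the Fgf8 and Foxi2 cluster. Only 26 and 16 cells of the class had a UMI of Afp, Alb or Apoa2, and they held 169 of the 266 Rbp4 UMIs (63.5%) and 142 of the 230 (61.7%). Without them, Rbp4 in the class was at 85.4 and 52.5 CPM, Ttr at 80.1 and 41.8 CPM and Apoa1 at 14.1 and 7.16 CPM. Those cells had a hepatoblast marker sum of 2018 and 2793 CPM against 1557 and 1647 CPM in the other cells of the class, and a yolk sac visceral endoderm marker sum of 161 and 390 CPM against 62.5 and 42.4 CPM. The part of liver bud or yolk sac cells in this signal was not tested. In cells of the class with a UMI of Shh or Nkx2-1, which mark foregut epithelium, and none of Afp, Alb or Apoa2 (125 and 125 cells), Rbp4 was at 62.6 and 61.3 CPM and Ttr at 102 and 84.3 CPM.

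Apoe had the widest pattern of the members. After hepatoblast-like cells its highest level among tested classes was in endothelial or endocardial-like cells, the lining of vessels and heart, with 366 UMIs (674 CPM) in replicate 1 and 540 UMIs (843 CPM) in replicate 2. That is 2.61-fold and 2.32-fold below hepatoblast-like cells, and the libraries did not overlap. An Apoe UMI was seen in 54.9% and 59.7% of endothelial or endocardial-like cells (medians of 1157 and 1946.5 UMIs), against 1.90% and 3.42% of erythroid-like cells. Against the remaining classes the log2 fold change was 3.98 ± 0.12 (adjusted p = 8.75e-36, edgeR), in a class where 15.7% of genes were higher. Macrophages are known for Apoe, and of 11 macrophage markers 6 were at 0 in this class and their sum was 49.7 and 35.9 CPM. Without the 16 and 15 cells that had a UMI of any of them, Apoe was at 655 and 887 CPM, against 674 and 843 CPM in the whole class. At this depth a cell can lack a marker UMI by sampling alone, and the part of macrophages in the Apoe level was not tested.

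Apoe was also above the mean of the fitted log2 levels of the remaining classes in 4 others, each below endothelial or endocardial-like cells in both libraries. In cardiomyocyte-like cells it was at 70.5 CPM (20 UMIs) in replicate 1 and 235 CPM (97 UMIs) in replicate 2, a log2 fold change of 1.69 ± 0.21 where 16.2% of genes were higher. This value differed between the libraries, being 0.75 in replicate 1 alone and 1.98 in replicate 2 alone. Pharyngeal mesoderm-like cells had 118 and 140 CPM (1.17 ± 0.26; 5.63% of genes higher) and surface ectoderm-like cells 134 and 117 CPM (1.01 ± 0.22; 10.9%). SHF progenitor-like cells had 76.3 and 97.1 CPM (0.54 ± 0.18, adjusted p = 0.0234, edgeR; 9.35% of genes higher), a call that was lost without the replicate block and with DESeq2 and reversed to -0.17 at Leiden resolution 1. The surface ectoderm-like value fell to 0.08 at that resolution. On the CPM scale the SHF progenitor-like mean, 86.7 CPM, was below the mean of the remaining classes, 119 CPM.

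The lowest Apoe levels were in cells of neural, neural crest and blood lineages. Erythroid-like cells had 2.79 and 4.59 CPM, a log2 fold change of -3.23 ± 0.41, in a class where 22.7% of genes were lower. Ectomesenchyme-like cells had 11 and 12.3 CPM (-2.59 ± 0.31; 5.13% of genes lower), neural crest or glia-like cells 20.2 and 17.7 CPM (-1.70 ± 0.35; 2.49%) and neural tube-like cells 15.4 and 48.1 CPM (-0.97 ± 0.33; 4.61%). Foregut endoderm-like cells, high for Rbp4 and Ttr, were among the low classes for Apoe at 34.7 and 48.1 CPM (-0.61 ± 0.19). From cardiomyocyte-like to surface ectoderm-like cells neighbours in the order overlapped, as did those from SHF progenitor-like to neural crest or glia-like cells. Hepatoblast-like, endothelial or endocardial-like, ectomesenchyme-like and erythroid-like cells stood apart from their neighbours.

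**Figure D4:**
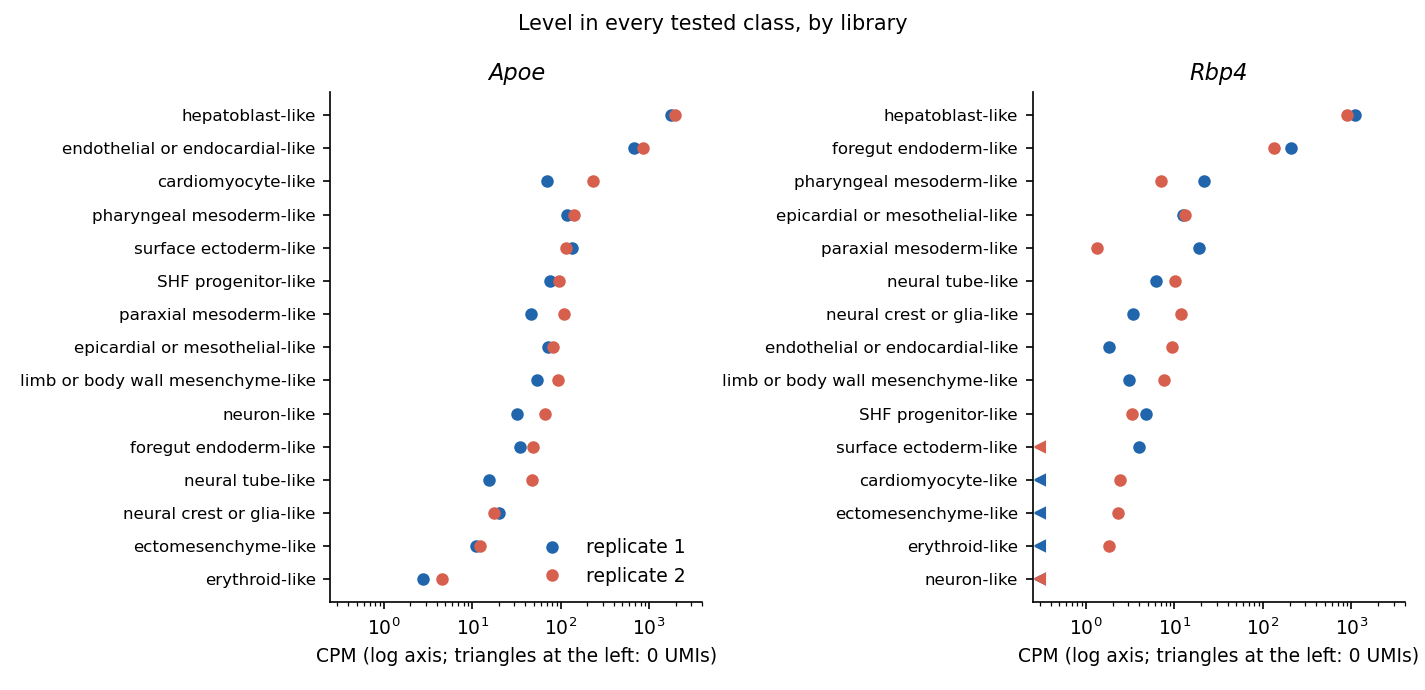
CPM (log axis) of Apoe (left) and Rbp4 (right) in each of the 15 tested classes, with 1 point per library and triangles at the left edge for 0 UMIs. Apoe falls stepwise from hepatoblast-like through endothelial or endocardial-like to erythroid-like cells, while Rbp4 is above 100 CPM only in hepatoblast-like and foregut endoderm-like cells.

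Trf and Rbp4 gave a few more calls at levels near the limit of counting. Trf was higher in endothelial or endocardial-like cells with 4 and 8 UMIs (7.36 and 12.5 CPM; log2 fold change 3.01 ± 0.66, adjusted p = 0.000481, edgeR), and 3 of the 4 UMIs of replicate 1 were in 1 cell. It was also higher in ectomesenchyme-like cells (5.48 and 6.13 CPM; 2.23 ± 0.67; 11.5% of genes higher), neural crest or glia-like cells (6.72 and 8.83 CPM; 2.47 ± 0.76; 7.50%) and paraxial mesoderm-like cells (3.19 and 7.96 CPM; 2.08 ± 0.71; 8.64%). Even in endothelial or endocardial-like cells, the highest of these, Trf was 72.1-fold and 31.3-fold below hepatoblast-like cells on the CPM scale. The ectomesenchyme-like call was lost under 3 alternatives, with adjusted p up to 0.193 (edgeR, Leiden resolution 3), and the paraxial mesoderm-like call under 2, with adjusted p up to 0.0942 (DESeq2). Rbp4 in epicardial or mesothelial-like cells was at 12.4 and 13.1 CPM (1.41 ± 0.51, adjusted p = 0.0486, edgeR; 12.5% of genes higher), and this call was lost under 6 alternatives. On the CPM scale its mean there, 12.8 CPM, was below the mean of the remaining classes, 17.9 CPM. In all, 16 pairs of a member and a class outside hepatoblast-like cells were called higher, of 9 members in each of 14 classes. In the classes concerned 5.63% to 16.2% of all tested genes were higher, so the count is near the background. In the other tested classes the highest library value was 5.37 CPM for Alb and 6.25 CPM for Apoa2. Among unnamed clusters Apoa2 reached 29.1 CPM from 7 UMIs in replicate 1 and Alb 6.13 CPM from 1 UMI in replicate 2.

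A cluster of 14 cells that carried Lyz2 or Pf4 was too small to be tested. Its 7 cells in replicate 1 held 79 Apoe UMIs, 76 of them in 1 cell, and 14 Trf UMIs, 11 of them in 1 cell, while the 7 cells of replicate 2 held 0 of either. Pf4, a platelet gene, was seen in 5 of the 7 cells of replicate 1 (75 UMIs) and in 6 of the 7 of replicate 2 (684 UMIs). Lyz2, a myeloid gene, had 273 UMIs in 2 cells of replicate 1 and 1 UMI in replicate 2, and C1qc had 13 and 0.

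The related genes of the secretory program were read from the same fit. Of 11 other apolipoproteins 3 passed the filter and all 3 were higher in hepatoblast-like cells, where 8.51% of all tested genes were higher. They were Apoc1, which inhibits lipoprotein uptake (71.9 CPM, log2 fold change 4.47 ± 0.47), Clu, an extracellular chaperone (41.6 CPM, 3.23 ± 0.57), and Apof (30.4 CPM, 6.69 ± 0.94). Apof averaged 0.186 CPM in the other classes and could pass the filter only through hepatoblast-like cells, so this count is a description. Clu reached 138 CPM in a library of another class, above its hepatoblast-like mean, while Apoc1 and Apof stayed below theirs. The other 8 had too few counts to be tested, among them Apoc3 and Apoa4, the neighbours of Apoa1, and Apoh had 0 UMIs. Of 36 other carriers, clotting factors and protease inhibitors 18 were higher, 1 did not pass and 17 were filtered, where 8.51% of all tested genes were higher. The median log2 fold change of the tested genes was 7.96, but several passed the filter only through hepatoblast-like cells, so count and median are descriptions. The most abundant were Fgb, the fibrinogen beta chain (1384 CPM, 10.00 ± 0.18), Ambp, the precursor of alpha-1-microglobulin (1080 CPM, 9.91 ± 0.21), Itih2, an inter-alpha-inhibitor heavy chain (989 CPM, 9.72 ± 0.21), and Serpinf2, the antiplasmin (635 CPM, 9.94 ± 0.25). Each of these 4 was above Alb in level. Ahsg, Hp, Agt, Fetub and Orm1, plasma proteins known from later liver, had 0 UMIs. Serpina1a to Serpina1e are near-identical copies, so their separate counts are uncertain.

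The machinery that loads and remodels lipoproteins, and the receptors, were nearer to their levels in other classes. Of 14 assembly and remodelling genes 4 were higher, 4 did not pass and 6 were filtered, with a median of 0.37, where 8.51% of all tested genes were higher. Those that were higher were P4hb, a subunit of the transfer protein complex with wide other roles (665 CPM, 0.56 ± 0.10), Lpl, lipoprotein lipase (219 CPM, 3.49 ± 0.21), Mttp, the transfer protein that lipidates Apob (107 CPM, 4.0 ± 0.32), and Dgat2, which makes triglyceride (79.8 CPM, 2.60 ± 0.32). In other classes P4hb and Lpl reached library values above these means, 797 and 229 CPM, while Mttp and Dgat2 did not. Mttp was above its partner Apob in level, and Sar1b, which moves lipoprotein-loaded vesicles, did not pass (102 CPM, 0.03 ± 0.20). Of 12 receptors 3 were higher, against the same share of 8.51% of all tested genes, 3 did not pass and 6 were filtered. Those higher included the transferrin receptor Tfrc (150 CPM, 0.92 ± 0.19) and Lrp1, which takes up Apoe particles (46.1 CPM, 2.11 ± 0.42). Both are above the mean of the other classes only, since their highest library values elsewhere were 555 and 53.2 CPM. Scarb1, the high density lipoprotein receptor, did not pass (31.9 CPM, 0.23 ± 0.37). Of 8 haemoglobins, 4 were lower in hepatoblast-like cells, 3 did not pass and 1 was filtered, with a median of -0.98, where 3.45% of all tested genes were lower. The other classes include erythroid-like cells, and the highest library value among them was 172434 CPM for Hbb-y. These values therefore do not compare hepatoblast-like cells with the classes that make no haemoglobin. The most abundant were Hbb-y (638 CPM, -0.73 ± 0.12), Hba-x (349 CPM, -0.71 ± 0.15), Hbb-bh1 (339 CPM, -0.84 ± 0.15) and Hba-a1 (82.8 CPM, -1.62 ± 0.43).

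**Figure D5:**
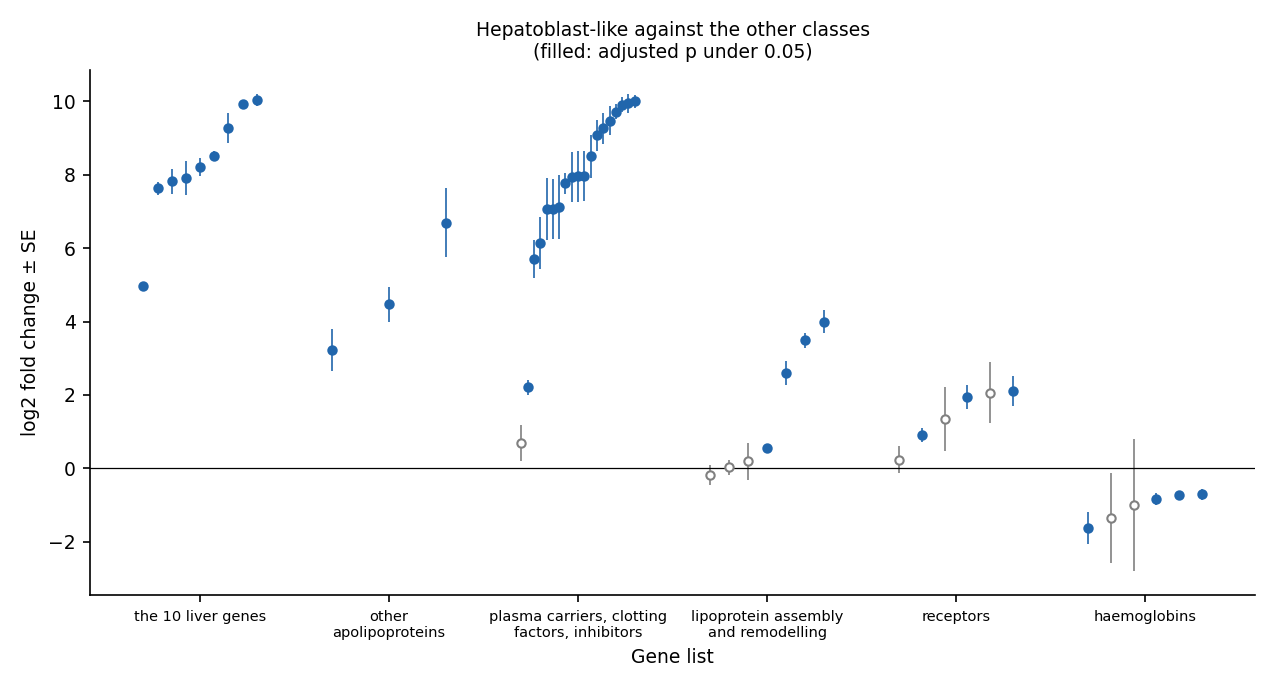
Log2 fold change ± SE of hepatoblast-like cells against the other classes for each tested gene of 6 lists, filled where the adjusted p was under 0.05. Members and other plasma proteins reach about 10, receptors and assembly genes stay at or below 4.0, and haemoglobins lie below 0. The SE is derived from the F statistic. Hba-a2 and Pltp are left out for the size of their SE, 3136 and 119.

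The genes most like 4 of the members across the 15 class means were listed by the Pearson correlation of log2(CPM + 10), among 6468 genes. For Alb they were Paqr9 (r = 0.998), Serpina6, which carries corticosteroids, Afm, the neighbour of Afp, and the fibrinogen chains Fgb and Fgg (r = 0.995). For Apob they were Serpina1c, Serpina1d, the transcription factor Foxa3, Itih2 and Hnf4a (r from 0.998 to 0.992), and for Apom they were Serpinf2, Foxa3, Serpina1c, Serpina1d and Paqr9. The 15 points share 2 libraries, and each of these genes was highest in hepatoblast-like cells. Apoe differed: its closest genes were Gas6, Lifr, Raph1, Glud1 and Itm2b, at r from 0.864 to 0.811.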

How the data were processed

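UMI counts per gene and cell barcode of both libraries were used as the authors deposited them, as whole numbers with no normalization. Genome build mm10 and Scanpy are given per the submitters' processing notes, and no source used here names the aligner or the counter. Barcodes with at least 400 genes and at most 10% mt- UMIs were kept (4038 and 4934). Scrublet's own threshold marked 0 and 1 of them, so the highest 5% of doublet scores per library was removed (174 and 191). Clustering (scanpy 1.11.5, Leiden, resolution 2, 30 principal components of 2000 variable genes scaled within each library) left out 91 genes of the lists. Each cluster was named from marker lists. The rule first written, the largest share of raised markers, gave the hepatoblast cluster to foregut endoderm, so after the values were seen the mean log2 fold of the markers was put first. This change also affected a cluster of 91 cells (29 and 62), whose largest share of raised markers was epicardial or mesothelial. It was named surface ectoderm and is part of the surface ectoderm-like class. A class needed at least 20 cells in each library to be tested, and 9 clusters stayed unnamed (31.8% and 29.9% of cells).

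UMI sums per class and library (30 sums) were fitted with edgeR 4.0.16 (R 4.3.3; TMM, filterByExpr, class plus library, quasi-likelihood, two-sided, Benjamini-Hochberg, threshold 0.05). The library served as a replicate block, since all classes of a library come from the same embryos and day. Deviations of the libraries correlated between classes at 0.218 to 0.720. On simulated counts of 9812 genes for this contrast, 79 of 100 genes changed 4-fold and 28 of 100 changed 2-fold were recovered, with 5 unchanged genes called. The simulated classes shared 1 profile, with a fixed spread and no library effect, unlike the real ones. The changed genes were drawn from those with more UMIs than Alb (161) or Apom (125) had in the tested classes. These rates therefore need not hold for the real contrast. The SE of a log2 fold change is its absolute value over the square root of the F statistic. CPM is the class's UMIs of a gene over all its UMIs. Exact intervals have 95% confidence, and a count of 0 allows up to 3 UMIs.

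Named were all members, the 4 most abundant tested genes of each other list, the 5 genes most like Alb, Apoe, Apob and Apom, and members called in another class. One receptor that this rule names is not reported here. Dgat2, the list genes with 0 UMIs, the filtered neighbours of Apoa1 and the genes of the cluster with Lyz2 and Pf4 were chosen after their values were seen. The members and lists were chosen with earlier results of these data known. Alternatives were doublets kept, 800 genes, 5% mt- UMIs, resolutions 1 and 3, the liver genes kept in clustering, classes per cell, no block, DESeq2 1.42.0, no filter, free RNA taken off and each library alone. Splits by Afp, Alb or Apoa2 UMIs, by macrophage markers and by cells with 0 members were added after the data were seen. Promoter sequences are from RefSeq (GRCm38.p6) and gene positions from GENCODE M21 (GRCm38).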

Additional observations from a re-analysis of the deposited data

How the results depend on the processing

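Only 2 libraries limit every test, and Apob, at 5 UMIs per library, could be tested only without the filter on low counts (log2 fold change 5.70, adjusted p = 2.77e-05, edgeR) and at Leiden resolution 1 (6.22, adjusted p = 7.30e-05). Of 99 alternative values for the members in hepatoblast-like cells, 98 kept their direction and side of the threshold and 1 was lost (Alb with DESeq2, 8.71). Of 171 in other classes 152 did, 18 were lost and 1 reversed, Apoe in SHF progenitor-like cells at Leiden resolution 1 (-0.17). The cause was not tested. With classes set per cell from markers, 422 genes were higher and 35 lower, against 835 and 339, and the summed level of the members was 7061 CPM against 12499 CPM. Genes lower numbered 225 with DESeq2. Without the replicate block, 146 genes were lower and 587 higher, and the 9 members and 14 of the 16 pairs in other classes were still called. From barcodes with 10 to 100 UMIs, which hold fewer counts, free RNA of the members was 0 CPM in replicate 2 against 126 CPM, and 9 pairs lay above its upper limit against 20. Afp ranked first and Apom and Apob last under all 11 settings of the order, Ttr and Apoe changed places in 3 and Apoa1 and Alb in 1. In each library alone the median log2 fold change of the members was 7.24 and 7.67. With the liver genes kept in the clustering, Rbp4 in foregut endoderm-like cells was at 2.21 and Afp at 1.31. Without foregut endoderm-like cells that had an Afp, Alb or Apoa2 UMI, an alternative added after the data were seen, mean Rbp4 was 69.0 CPM against 172 CPM.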

Other observations

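Apoe was also present in cells that received no class name. In a cluster led by Shox2, Hcn4 and Vsnl1, genes known from the venous pole and pacemaker region of the heart, in which 9 cardiomyocyte markers were raised (125 and 119 cells), Apoe was at 151 and 267 CPM. Both values were above those of the cardiomyocyte-like class in the same library, 70.5 and 235 CPM, and the difference was not tested. A further unnamed cluster of 52 and 111 cells had Apoe at 158 and 308 CPM. In all 3 clusters replicate 2 was the higher.

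Rbp4 in the Shox2 and Hcn4 cluster had 3 UMIs in replicate 1 and 39 in replicate 2, and all 39 were in 1 cell. In an unnamed cluster of 78 and 125 cells, Rbp4 was at 46.1 and 62.8 CPM from 3 and 7 UMIs, and the 7 UMIs of replicate 2 were in 1 cell.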
